A study of Mus musculus with 4 samples.

Results

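The NF-kB family was examined in a cloned mouse Th1 line, CD4 helper T cells that make interferon gamma, after the cells had been made anergic. The set comprises the subunit genes Nfkb1, Nfkb2, Rel, Relb and Rela, the inhibitor genes Nfkbia, Nfkbib and Nfkbie, the ubiquitin-editing enzyme gene Tnfaip3 and the nuclear co-regulator gene Bcl3. Every probe set that the platform annotation assigns to a single symbol among these 10 genes was taken. This gave 12 probe sets for 9 genes, out of 12488 probe sets and 8251 singly named genes on the array. Nfkb1 was not analysed here, because no probe set carries its symbol in that annotation. The study compared 2 anergic arrays, from the clone exposed to anti-CD3 antibody fixed to a plate, with 2 control arrays, from the same type of Th1 cell at rest. Strain, antigen specificity, and the time between antibody and RNA extraction were not found in the labels. Both groups are cloned T cells. Whether the pair of arrays in a group had separate cultures behind it is not stated in the labels, so the p-values cover the array-to-array spread alone, and that may be technical.

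NF-kB proteins are dimers of subunits that share the Rel homology domain. In a resting T cell they are held in the cytoplasm by IkB inhibitors, and signals from the T cell receptor together with CD28 activate the IKK kinase complex, which marks the inhibitors for destruction and releases the dimers. The family regulates itself, since Nfkb2, Relb, Nfkbia, Tnfaip3 and Bcl3 are known targets of NF-kB, and a T cell receptor signal without costimulation, which activates NF-kB poorly, is a textbook route to anergy.

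The promoters of the genes whose levels separated the groups most are shown because binding sites for NF-kB are known in several of them. Windows of 250 bases before to 50 bases after an annotated transcript start were taken from RefSeq, build GRCm38.p6. Of the 9 genes, 8 had at least 1 window, and Relb had none. The windows are printed 5′ to 3′ on the strand of the gene. They are chr19:46304487-46304786 (plus strand) for Nfkb2, chr10:19015361-19015660 (minus strand) for Tnfaip3, chr12:55492598-55492897 (minus strand) for Nfkbia and chr7:19822706-19823005 (minus strand) for Bcl3. Capitals mark the matches, on either strand, to the NF-kB consensus, a pattern of 10 bases with several that may vary.
Nfkb2: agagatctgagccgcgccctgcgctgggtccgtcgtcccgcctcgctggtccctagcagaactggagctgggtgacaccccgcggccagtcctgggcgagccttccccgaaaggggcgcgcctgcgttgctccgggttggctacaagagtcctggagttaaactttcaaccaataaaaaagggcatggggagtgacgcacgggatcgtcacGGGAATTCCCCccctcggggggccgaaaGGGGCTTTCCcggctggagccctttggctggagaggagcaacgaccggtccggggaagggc
Tnfaip3: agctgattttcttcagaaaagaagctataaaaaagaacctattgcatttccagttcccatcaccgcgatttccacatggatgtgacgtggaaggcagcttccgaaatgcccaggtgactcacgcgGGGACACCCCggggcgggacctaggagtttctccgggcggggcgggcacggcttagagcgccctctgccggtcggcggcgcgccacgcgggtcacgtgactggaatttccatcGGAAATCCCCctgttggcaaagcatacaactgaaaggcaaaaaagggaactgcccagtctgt
Nfkbia: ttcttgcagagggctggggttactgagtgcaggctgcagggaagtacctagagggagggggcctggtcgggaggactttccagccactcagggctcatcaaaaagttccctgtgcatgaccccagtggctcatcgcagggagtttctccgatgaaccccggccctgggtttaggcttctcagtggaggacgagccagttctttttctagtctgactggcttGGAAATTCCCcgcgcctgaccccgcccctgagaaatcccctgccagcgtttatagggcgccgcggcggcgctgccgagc
Bcl3: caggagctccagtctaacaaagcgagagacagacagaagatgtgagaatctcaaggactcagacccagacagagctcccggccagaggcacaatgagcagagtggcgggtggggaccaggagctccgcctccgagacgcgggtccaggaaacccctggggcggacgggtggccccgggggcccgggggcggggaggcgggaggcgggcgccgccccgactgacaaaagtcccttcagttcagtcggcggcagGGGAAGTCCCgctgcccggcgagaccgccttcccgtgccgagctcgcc

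The NF-kB consensus was matched in a window of 6 of the 8 genes (Nfkb2, Rel, Nfkbia, Nfkbie, Bcl3 and Tnfaip3) and was not found in those of Rela and Nfkbib. Among all 27025 genes with windows in the table, 9.55% held a match. The Nfkb2 window printed above holds GGGGCTTTCC at 11 bases before the start and a stretch with overlapping matches, beginning with GGGAATTCCC, further upstream. The next annotated Nfkb2 start has GGGACTTTCC within its first transcribed bases. In Nfkbia the match is GGAAATTCCC, on the opposite strand and 29 bases before the start. In Tnfaip3 the nearer match, GGAAATCCCC, lies 12 bases before the start. The second annotated start of Tnfaip3, whose window is chr10:19011914-19012213, has 0 matches. The Bcl3 window holds the palindrome-like GGGAAGTCCC just inside the transcript. A match describes the letters only and was not tested for binding.

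**Figure D1:**
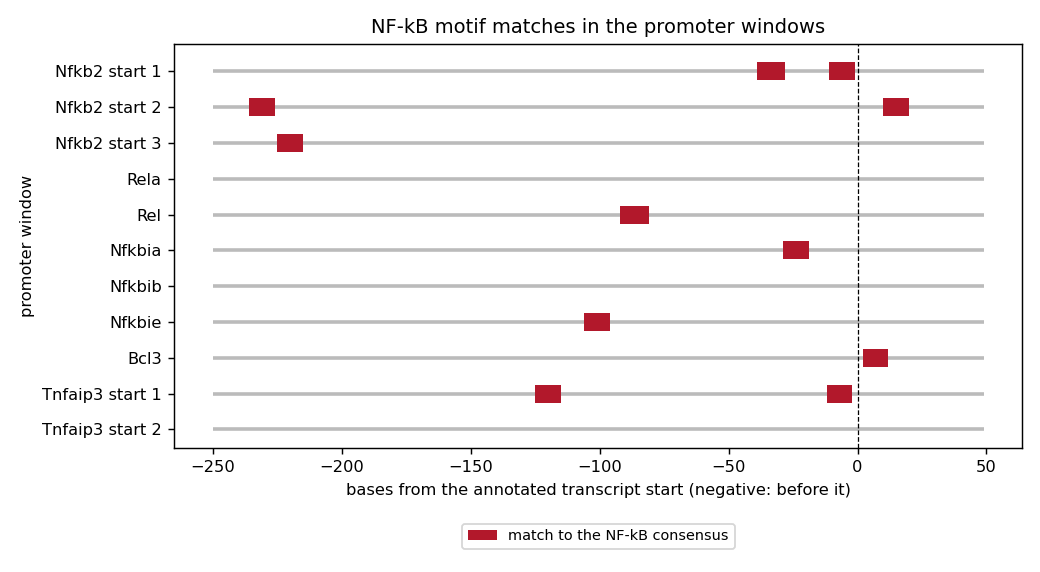
Positions of motif matches in the RefSeq promoter windows of the NF-kB genes. The x axis gives bases from the annotated transcript start, each grey line is a window, and red blocks are matches to the NF-kB consensus on either strand. Nfkb2, Rel, Nfkbia, Nfkbie, Bcl3 and Tnfaip3 carry blocks, and Rela and Nfkbib carry none. Relb had no window and is not shown.

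Intensities were compared after log2 transformation with a pseudocount of 29.15, and a probe set was tested where its mean lay above the 40th percentile, equal to an intensity of about 92.4. Of the 12 probe sets, 10 from 8 genes were tested, and 2 were too dim. One was the only probe set of Rel, at 27.9 and 18.5 on the anergic arrays and 21.2 and 22.2 on the control arrays. Rel encodes c-Rel, a subunit known for its role in T cell activation, and the values of the groups overlapped. The other was a second probe set of Rela, at 2.8 and 12.6 on the anergic arrays and 8.2 and 9.2 on the control arrays. Its suffix marks an incomplete set of probes (162042_i_at). Without detection calls, no statement can be made on whether either transcript was present.

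The 4 arrays had the same trimmed mean of intensity, 500.3, and medians of 134.2 and 175.8 (anergic) and 146.5 and 191.2 (control). The bacterial spike-in probe sets set control array 2 apart, with a geometric mean of 1972 there and between 870.4 and 1014 on the other arrays, and results that rest on it are given with and without it. Of 9 T cell marker genes 8 were tested and 0 passed in limma at the threshold used here, among them Cd3e and Cd4. Some separated the groups without passing. Both anergic values lay above both control values in Cd3d (log2 difference 0.68), Cd4 (0.27) and Cd247 (0.23), and below them in Thy1 (-0.60). Of 9 B cell markers 5 were bright enough to test and 0 passed, with summed intensities of 888.8 and 1206 on the anergic and 983.5 and 1962 on the control arrays. Ighm read 162.6 and 259 on the anergic and 266.1 and 747.5 on the control arrays. In Ighm, and in Cd79b and Cr2 under the filter, both anergic values lay below both control values. The other B cell markers overlapped between the groups. Of 11 macrophage and dendritic cell markers 6 were tested, and Cd68 alone passed, as higher in anergic cells. The sums of the 11 were 2419 and 2537 on the anergic and 3003 and 2535 on the control arrays. Mpeg1 was tested and did not pass, at 93.8 and 155.8 on the anergic and 213.6 and 320 on the control arrays. Lyz2 lay under the filter, at 11.7 and 11.4 on the anergic arrays and 129.1 and 73.3 on the control arrays. Fcer1g, also under it, shared that direction. Adgre1 and Fcgr3, under it too, went the other way. Adgre1 read 36.4 and 36.9 on the anergic and 24 and 20.2 on the control arrays, and Fcgr3 58.5 and 79.3 against 27.1 and 32.1. The class II gene H2-Aa also lay under the filter, at 12.2 and 19.2 on the anergic arrays and 178.3 and 140.4 on the control arrays. The 5 class II genes summed to 2513 and 3664 on the anergic and 2815 and 3136 on the control arrays. Most of that sum came from Cd74, at 1982.7 and 2927.6 on the anergic and 1775 and 1990.1 on the control arrays. In H2-Ab1, H2-Eb1 and Ciita, as in H2-Aa, both anergic values lay below both control values. None of the class II genes tested passed. The part of such other cells in the results below was not tested.

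Among the subunits, Nfkb2 was higher in anergic cells. Nfkb2 encodes p100, which holds RelB in the cytoplasm and is processed to the DNA-binding subunit p52 in the noncanonical pathway. Its probe set 103614_at read 2354.7 and 2594.9 on the anergic arrays, against 823.9 and 935.1 on the control arrays. The arrays of each group lay close together and the groups were far apart. Mean intensity was 2475 ± 170 in anergic and 880 ± 78.6 in control cells (SD, n = 2 each), a 2.76-fold rise and a log2 difference of 1.46 ± 0.24 (SE, 95% confidence interval 0.92 to 2.01, limma adjusted p = 0.0285). The difference was 1.48 between the arrays numbered 1 and 1.44 between those numbered 2. Nfkb2 was the only one of the 10 tested probe sets to pass in limma after Benjamini-Hochberg adjustment over all probe sets, with 1 higher and 0 lower, where 0.912% of the 7453 probe sets tested passed as higher and 0.429% as lower. Of the 10, 3 were higher and 1 was lower at an unadjusted p under 0.05, which 5.61% of all probe sets tested reached as higher and 5.65% as lower. The size of the Nfkb2 difference hardly moved when an array was left out, but the call was lost without anergic array 1 (1.53 ± 0.36, adjusted p = 0.153) and without anergic array 2 (1.39 ± 0.37, adjusted p = 0.173). It was also lost with each array centred on its median (1.57 ± 0.34, adjusted p = 0.123) and without an intensity trend in the variance (adjusted p = 0.128). As in all bulk samples, fewer cells of a type and less RNA per cell cannot be told apart here.

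Relb and Rela gave no difference that passed. Relb encodes the usual partner of p52. Its probe set 103091_at read 1150 and 701.9 on the anergic arrays and 914.4 and 764.4 on the control arrays. The control values fell between the anergic ones, and the log2 difference was 0.10 ± 0.31 (SE, 95% confidence interval -0.60 to 0.81). A second probe set, 162372_f_at, whose suffix marks probes shared within a sequence family, read 213.9 and 139.2 on the anergic arrays and 139.6 and 213.8 on the control arrays. The pairs of values nearly mirror each other by array number, and the log2 difference was -0.0014 ± 0.41. Rela encodes p65, the main activating subunit of the canonical pathway. Its bright probe set 97813_at read 4710.1 and 4879.4 on the anergic arrays and 5919.4 and 4182.1 on the control arrays, so that here the control arrays enclosed the anergic ones. The difference of -0.053 ± 0.24 had a 95% confidence interval of -0.61 to 0.50. The intervals allow changes of Relb and Rela smaller than that of Nfkb2 in either direction, and for the dim Relb probe set they are wide (-0.95 to 0.95).

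**Figure D2:**
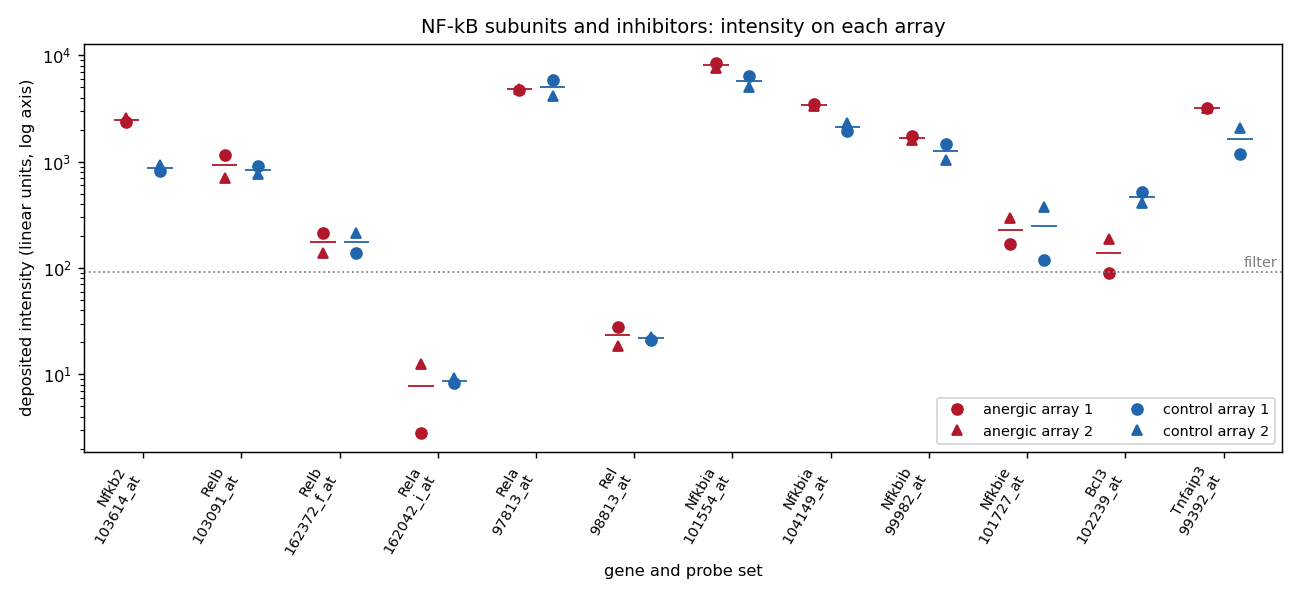
Deposited intensity of each probe set of the NF-kB genes on each array, on a log axis, with anergic arrays in red left of control arrays in blue. Circles are arrays numbered 1, triangles arrays numbered 2, bars the group means, and the dotted line the filter. The anergic arrays of Nfkb2 (2354.7 and 2594.9) and Tnfaip3 (3202.8 and 3209.9) lie above their control arrays, and those of Bcl3 (89.8 and 188.2) lie below.

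The inhibitor genes Nfkbia and Nfkbib were brighter on both anergic arrays than on both control arrays without passing the test. Nfkbia encodes IkB-alpha, the inhibitor that is degraded and resynthesised within each round of signalling. Its probe set 101554_at read 8569.7 and 7671 on the anergic arrays and 6345.1 and 5088.2 on the control arrays. The second, 104149_at, read 3516.2 and 3325.9 on the anergic arrays and 1949.1 and 2289.9 on the control arrays. In both, all anergic values exceeded all control values, and the log2 differences were 0.51 ± 0.22 (adjusted p = 0.441) and 0.69 ± 0.22 (adjusted p = 0.266). The 95% confidence intervals ran from -0.0013 to 1.02 and from 0.17 to 1.20. Nfkbib, which encodes IkB-beta, an inhibitor that is degraded more slowly, read 1747.1 and 1609.2 on the anergic arrays and 1457 and 1038.2 on the control arrays. Its difference was 0.44 ± 0.26 (adjusted p = 0.605). Leaving out control array 2 brought it to 0.20, and leaving out control array 1 to 0.68, so its size depended on which control array was kept.

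Nfkbie showed no clear direction, and Bcl3 went the other way without passing the test. Nfkbie, which encodes IkB-epsilon, read 166.9 and 292.4 on the anergic arrays and 118.1 and 376.7 on the control arrays. The spread between the control arrays, 1.46 on the log2 scale, dwarfed the difference of 0.039 ± 0.53 between the groups, and the 95% confidence interval of -1.18 to 1.25 leaves both directions possible. Bcl3 encodes a nuclear IkB-like protein that binds dimers of p50 or p52 and adjusts their activity at promoters. Its probe set 102239_at read 89.8 and 188.2 on the anergic arrays, against 520.4 and 408.6 on the control arrays. Both anergic values were below both control values, and anergic array 1 was the lowest. The mean was 139 ± 69.6 in anergic and 464.5 ± 79.1 in control cells (SD, n = 2 each). The log2 difference was -1.61 ± 0.40 (SE, 95% confidence interval -2.53 to -0.69), with an adjusted p of 0.135. This was the largest difference by size among the 10 tested probe sets, but the anergic arrays differed from each other by 0.87, and it did not pass. Without control array 2 it was -1.77, and without anergic array 1 it was -1.17. With a pseudocount at the array median of 161.2 it was -1.07 ± 0.26 and did not pass (adjusted p = 0.122).

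Tnfaip3 encodes A20, which edits ubiquitin chains on signalling proteins upstream of IKK and so restrains NF-kB. Its probe set 99392_at read 3202.8 and 3209.9 on the anergic arrays, against 1179.4 and 2066.2 on the control arrays. The anergic arrays were almost equal and above both control arrays, which differed from each other by 0.79 on the log2 scale. The log2 difference was 1.02 ± 0.29 (SE, 95% confidence interval 0.35 to 1.70, adjusted p = 0.199). The size of the difference depended on which control array was kept, at 1.42 without control array 2 and 0.63 without control array 1.

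**Figure D3:**
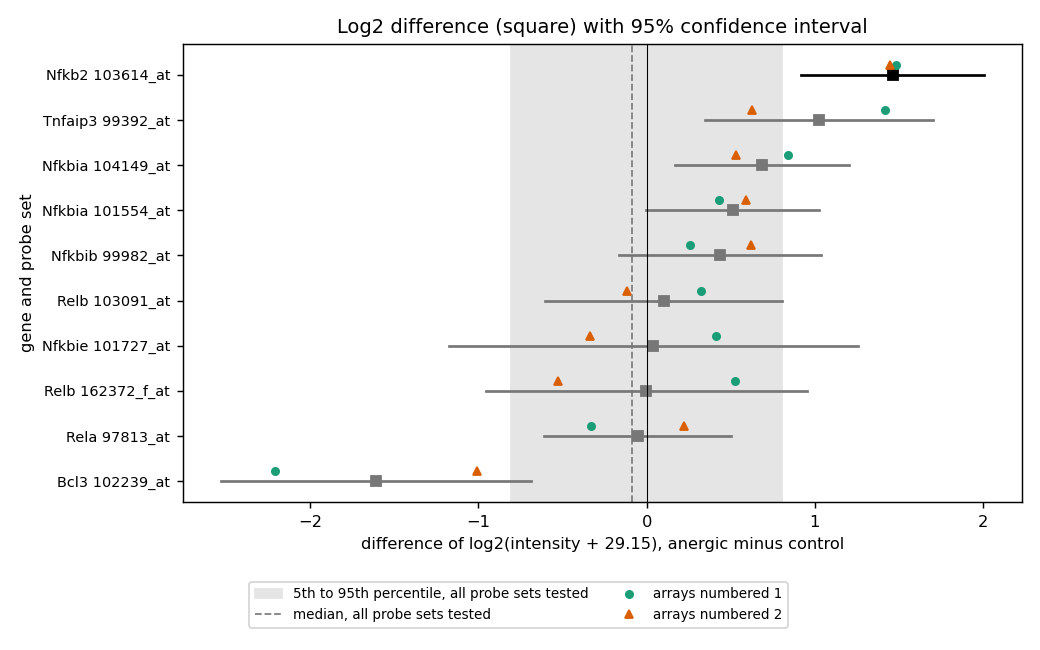
Log2 difference between anergic and control cells for the tested probe sets, with squares for the estimate, lines for the 95% confidence interval and small symbols for the difference within each array number. The grey band spans the 5th to 95th percentile of all probe sets tested, -0.81 to 0.80, and the dashed line is their median. Nfkb2 (black, 1.46) passed the threshold, and the intervals of Tnfaip3, of Nfkbia 104149_at and of Bcl3 also leave out 0.

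**Figure D4:**
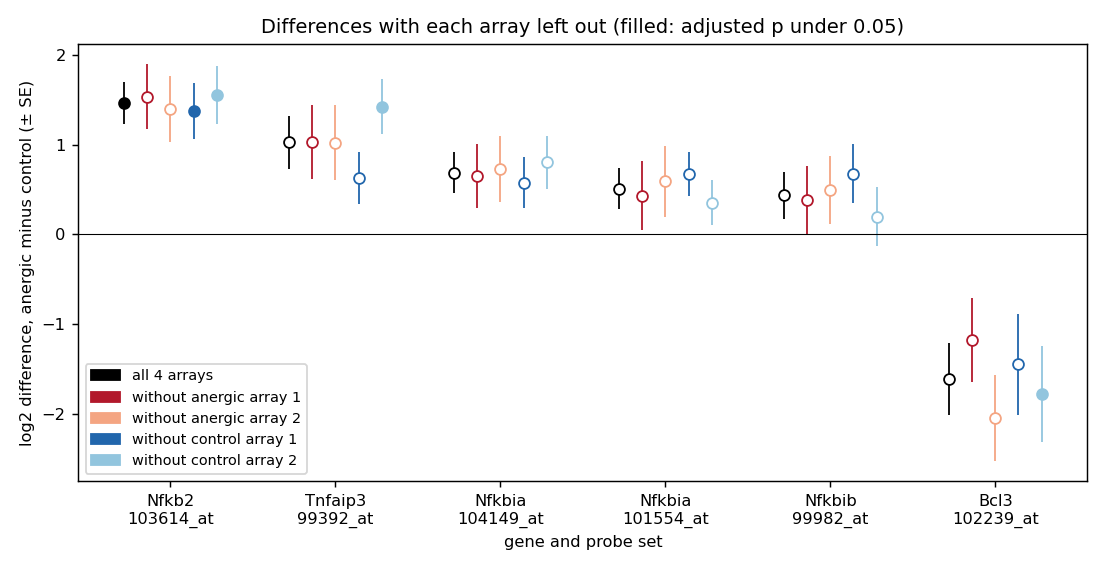
Log2 difference, anergic minus control, with its SE for 6 probe sets with all 4 arrays and with each array left out, where filled symbols have an adjusted p under 0.05. Nfkb2 stays between 1.38 and 1.55, while Tnfaip3 spans 0.63 to 1.42 and Bcl3 spans -2.04 to -1.17. With an array left out, a group rests on a lone array.

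Both anergic arrays were above both control arrays in 5 of the 10 tested probe sets (Nfkb2, both probe sets of Nfkbia, Nfkbib and Tnfaip3) and below them in 1 (Bcl3). Over all tested probe sets these shares were 16.8% and 23.5%. The median log2 difference of the 10 was 0.27 and that of all probe sets tested -0.085, and the median absolute differences were 0.47 and 0.29. These figures describe the probe sets, since 2 pairs of them belong to 1 gene each and no test was made over the set. Centring each array on its median raised the median of all probe sets to 0.021, a shift of 0.11 on the log2 scale. It turned the sign of Rela (0.053) and of the dim Relb probe set (0.11), while Nfkb2, Nfkbia, Nfkbib, Tnfaip3 and Bcl3 kept theirs.

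Genes whose pattern over the 4 arrays was most like that of Bcl3, the probe set with the largest difference, were found by the Euclidean distance between log2 values centred on their mean. The 5 nearest were Rgs10 (distance 0.18), Rapsn (0.22), Cxcr3 (0.35), Gstm5 (0.42) and Lgals9 (0.43). Cxcr3, a chemokine receptor gene of Th1 cells, read 218.8 and 336.6 on the anergic arrays and 835.3 and 867.1 on the control arrays (adjusted p = 0.0642). None of these 5 passed, with adjusted p between 0.0642 and 0.389. The same search for Nfkb2, added because it alone had passed, gave the chemokine gene Ccl5 (0.19), the transporter gene Abcc1 (0.19), the cytokine gene Tgfb1 (0.20), the myosin gene Myo1f (0.21) and the lysosomal protease gene Ctsd (0.22). Ccl5 read 13688.5 and 16081.3 on the anergic arrays and 5065.6 and 6611.8 on the control arrays. With 4 arrays such neighbours reflect little more than a shared direction and size.

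The machinery upstream of NF-kB was assessed with a list of 54 genes for receptors, adaptors, kinases and regulators, of which 39 had a probe set and 38 were tested, each by its brightest probe set. In limma 0 passed in either direction, where 1.04% of 5583 genes tested passed as higher and 0.519% as lower. An unadjusted p under 0.05 was reached by 6 genes that were higher and 1 that was lower in anergic cells, and by 6% of all genes tested in each direction. The median log2 difference of the list was 0.068, against -0.085 for all genes. Tnip1, which encodes a partner of A20, read 3810.1 and 3007.9 on the anergic arrays and 2222.4 and 1580.9 on the control arrays (log2 difference 0.84 ± 0.26, adjusted p = 0.241). Otud7b, the gene of a deubiquitinase related to A20, read 472.6 and 431.4 on the anergic arrays and 199 and 218 on the control arrays (1.02 ± 0.31, adjusted p = 0.236). The suffix of the Otud7b probe set, 96590_f_at, marks probes shared within a sequence family. In these 2 genes, as in Tnfaip3, both anergic values lay above both control values. That held for 13 of the 38 tested genes of the list, and the reverse held for 10. Over all probe sets tested the shares were 16.8% and 23.5%, and no test was made over the list. Among the 10 lower genes were Tax1bp1 (-0.25) and Itch (-0.32). The other probe sets of Tax1bp1 disagreed in sign, at -0.52 and 0.56. Itch separated the groups narrowly, with anergic array 2 at 812.8 and control array 2 at 824.8.

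Nfkbiz, which encodes a nuclear IkB protein of the same class as Bcl3, differed by 1.19 ± 0.38 (adjusted p = 0.256), in the direction opposite to Bcl3. It read 972.3 and 463.1 on the anergic arrays and 283.9 and 272.9 on the control arrays. The IKK-related kinase gene Ikbke read 606.1 and 800.7 on the anergic arrays and 117.6 and 484.7 on the control arrays (1.40 ± 0.54, adjusted p = 0.362). With an array left out, the difference of Ikbke ran from 0.50 to 2.31 and that of Tnip1 from 0.60 to 1.08. The adaptor gene Traf1 was at 0.85 ± 0.36 with all arrays and ran from 0.41 to 1.29. Traf6, which encodes a ubiquitin ligase adaptor of the IKK pathway, was at -0.81 ± 0.31 (adjusted p = 0.359), and its other probe sets were at -0.48 and -0.67. Ikbkb and Ikbkg, genes of the IKK kinase complex, were at -0.55 ± 0.36 and -0.094 ± 0.32, and the second probe set of Ikbkg was at 0.52 ± 0.37.

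**Figure D5:**
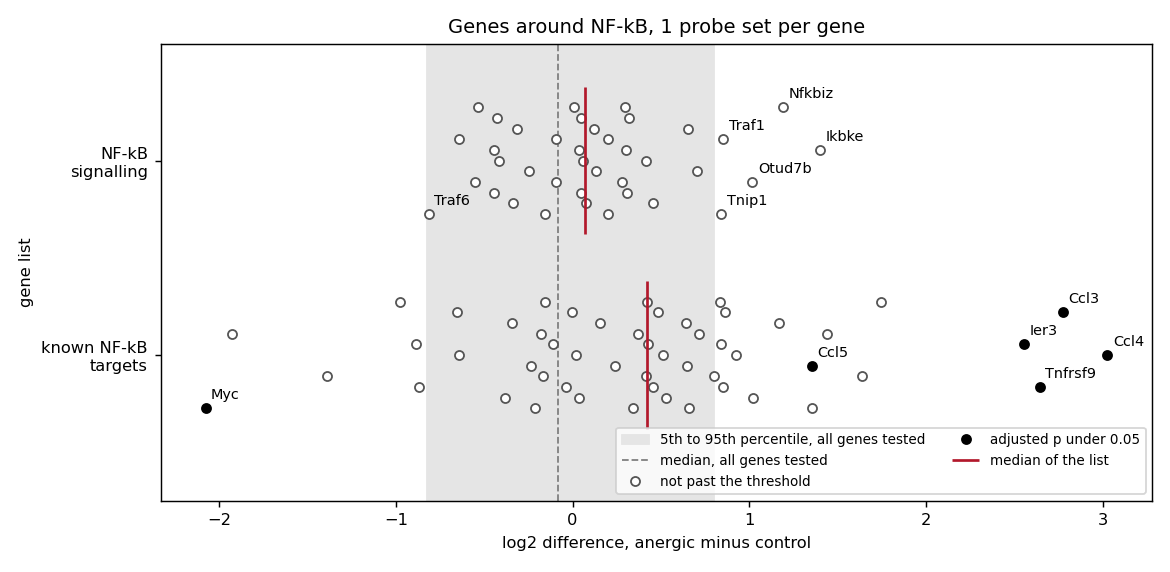
Log2 difference, anergic minus control, for 38 tested NF-kB signalling genes and 52 tested NF-kB target genes, 1 probe set per gene, with height within a row used only to separate points. Filled points passed the threshold, red lines are the medians of the lists (0.068 and 0.42), and the grey band spans the 5th to 95th percentile of all genes. In the target row 5 genes to the right and Myc to the left are filled.

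Genes widely known as NF-kB targets moved in both directions. Of 75 listed, 69 had a probe set and 52 were tested, of which 5 rose, 1 fell and 46 did not pass, where 1.04% of all genes tested passed as higher and 0.519% as lower. The inflammatory chemokine genes Ccl3 (log2 difference 2.77 ± 0.24, adjusted p = 0.0019), Ccl4 (3.03 ± 0.41) and Ccl5 (1.35 ± 0.23) rose. So did Ier3, an immediate early gene that modulates cell survival (2.56 ± 0.28), and Tnfrsf9, which encodes the costimulatory receptor 4-1BB (2.64 ± 0.36). Ier3 read 2470.1 and 1914.6 on the anergic arrays and 398.2 and 299.3 on the control arrays. Myc, a driver of cell growth, fell, with 66.4 and 101.5 on the anergic arrays and 377.6 and 516.5 on the control arrays (-2.08 ± 0.39, adjusted p = 0.0482). The second probe set of Tnfrsf9 was at -0.22. The list's median was 0.42, against -0.085 for all genes, and 5 of its tested genes also stood in the signalling list. Its genes were listed with earlier results of these arrays in view, so its direction is not independent evidence. Many of these genes also answer to NFAT, AP-1 and other factors, and the share of NF-kB in their levels was not measured.

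With an array left out, 1 group rested on a lone array. The number of calls then changed over all probe sets as well as among the targets. The calls of Ccl3 and Ier3 held with each array left out. Those of Ccl5 and Myc were lost without either anergic array (Ccl5 1.47 and 1.24, Myc -1.85 and -2.30), and those of Ccl4 and Tnfrsf9 without anergic array 1 (2.94 and 2.29, adjusted p = 0.0784 and 0.123). Myc was also lost without control array 2 (-1.86, adjusted p = 0.063), with a pseudocount of 1 (adjusted p = 0.0511), without a filter and without the trend, and its difference was -1.31 with the pseudocount at the array median. It passed in 7 of the 13 alternatives that could be run. Ccl5 was also lost without a filter (adjusted p = 0.0973) and without the trend (adjusted p = 0.203). Tnfrsf9 was also lost without the trend (adjusted p = 0.0514) and when its probe sets were averaged (1.21, adjusted p = 0.135).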

How the data were processed

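RNA from 2 anergic and 2 control samples of a mouse Th1 clone was extracted with Trizol and hybridised as biotin-labelled cRNA, per the labels' protocols. The authors deposited 1 linear intensity for each probe set on each array. The sources used here do not give the software, background correction or summarisation. The values show that the authors scaled the arrays before deposit, since the mean after trimming 2% at each end was 500.3 on every array. Detection calls were not used, and the number of arrays limits precision.

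Gene names came from the platform annotation held by GEO, where it gives 1 symbol (10833 of 12422 probe sets that are not controls, with 396 having several symbols and 1193 not listed). Symbols were checked by gene ID against RefSeq (GRCm38.p6), which matched 10817 and changed 0. The deposited scale was kept. Values were transformed as log2(intensity + 29.15), the pseudocount being the median over arrays of the 20th percentile, so folds of dim genes are understated. Fold changes are on this scale. The 66 control probe sets were left out, and the 7453 probe sets with a mean above the 40th percentile were fitted with R 4.3.3 and limma 3.58.1, using lmFit and a two-sided eBayes test whose prior variance follows intensity, with Benjamini-Hochberg adjustment over all of them at a threshold of 0.05. The fit, tested on simulated data, had 2 residual and 6.17 prior degrees of freedom. With 2 arrays on each side, exact permutation reaches no p lower than 0.333. In the lists each gene is given by its brightest probe set on average. All probe sets of the 10 genes are reported, the 6 genes of each list with the smallest p are named, and other names were chosen after their values were seen. The members, lists and tests were chosen with earlier results of these data known. The 14 alternatives concern the pseudocount, the filter, scaling, the trend, the array number as a block, 1 value per gene, and each array left out with the same probe sets kept.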

Additional observations from a re-analysis of the deposited data

How the results depend on the processing

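The signs of Nfkb2, both Nfkbia probe sets, Nfkbib, Tnfaip3 and Bcl3 were the same in each alternative that could be run, while the near-zero differences turned. Nfkbie was at -0.0068 with the pseudocount at the array median and between -0.69 and 0.77 with an array left out. The dim Relb probe set was at 0.075 with quantile normalization, 0.11 with centring, 0.050 with the mean of probe sets, and between -0.27 and 0.26 with an array left out. Rela was at 0.053 with centring and between -0.30 and 0.20 with an array left out, and the brighter Relb probe set between -0.24 and 0.45. Of the 14 alternatives, Nfkb2 passed in 10, with adjusted p between 0.000144 and 0.173. Among the NF-kB genes 0 probe sets passed with centring and 0 without the trend, and between 0 and 3 with an array left out. Over all probe sets 59 passed without a filter, 64 (52 higher, 12 lower, in place of 68 and 32) with centring, 38 without the trend, and between 44 and 354 with an array left out. Signalling genes passed in 0 to 2 cases and targets in 3 to 15 with an array left out, and 3 targets passed without the trend. Fits without an anergic array had 9.33 or 10.4 prior degrees of freedom, and those without a control array 42 or 1090, and the lone array is assumed to vary like the other group. Bcl3 could not be tested with the stricter filter, which it does not pass.

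The array numbers are shared between groups, but no label says what they mark. Arrays with the same number deviated together (r = 0.54 across probe sets between the deviations from the group means, with 2 pairs). With the number as a replicate block 761 probe sets passed, among them 4 of the NF-kB genes (Nfkb2, Nfkbia 104149_at and Tnfaip3 higher, Bcl3 lower), 6 signalling genes and 23 targets. The adjusted p was then 0.00368 for Bcl3 and 0.0089 for Tnfaip3.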

Other observations

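Several target genes outside the 6 with the smallest p had 2 probe sets with differences of the same sign, and they are named here after their values were seen. In others the signs differed, as in Lta (0.64 and -0.039) and Birc2 (0.42 and -0.090). The probe sets of Stat5a (100422_i_at and 100423_f_at) and of Junb (102362_i_at and 102363_r_at) carry suffixes other than the plain _at. Of these, _i marks an incomplete set of probes and _f marks probes shared within a sequence family. The 2 readings of each gene may therefore not be independent. Stat5a, which encodes a signal transducer of the IL-2 receptor, was at 1.02 and 1.09 (limma adjusted p = 0.107 and 0.071). The survival kinase gene Pim1 was at 0.84 and 0.94 (adjusted p = 0.192 and 0.264). The AP-1 gene Junb was at 1.64 and 1.56, with anergic array 1 at 5020.6 and anergic array 2 at 1807.1 in its brighter probe set, against 1472.3 and 607.7 on the control arrays. Gadd45b, a stress gene known to be induced by NF-kB, was at 0.48 and 1.17. Among target genes that were lower, Ltb, encoding lymphotoxin beta, was at -0.98 (adjusted p = 0.0791) and Irf1 at -0.87 (adjusted p = 0.194).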
